A study of Sus scrofa with 3 samples.

Results

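TCONS_00036665 is a long intergenic non-coding RNA (lincRNA) of pig skeletal muscle that was chosen by its identifier, and it was 1 of 14580 assembled transcripts with FPKM values (fragments scaled by transcript length and library depth). The values came from longissimus dorsi muscle of Large White female pigs aged 1 month. One library was made from RNA precipitated with an antibody against EZH2, one from RNA precipitated with control IgG, and one, called lincRNAseq, from total RNA freed of ribosomal RNA. There was 1 library for each of these 3 conditions, so no value has a spread between animals and no test between conditions was possible. The study describes all 3 libraries as made from a shared sample, the muscle of a single pig, although its methods for the precipitates speak of pigs. The tables pair no transcript with a gene name, so muscle markers could not be looked up to check the labelled tissue.

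EZH2 is the subunit of Polycomb repressive complex 2 (PRC2) that methylates histone H3, a mark of silenced genes, and in muscle precursor cells it keeps genes of differentiation silent. PRC2 also binds RNA, with many partners and a preference for stretches rich in G, so a control antibody is needed to read an RNA found in its precipitate. The title of the series uses the name pNEAT1, and the likeness of TCONS_00036665 to NEAT1 rests on a sequence alignment of the study that was not analysed here. NEAT1 is a nuclear lincRNA known as the scaffold of paraspeckles, bodies in the nucleus that hold RNA-binding proteins.

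The RNA whose ends the study mapped was 3450 nt long and ended in a poly(A) tail of 30 nt. The 3420 nt before the tail had a GC content of 50.9%, with more G (30.5%) than C (20.4%). Positions are counted from 1 at the 5′ end. The stretches below are those on which the base composition and the PCR assays of the study rest. In the first 120 bases and in the 60-base window richest in G, capitals mark runs of 4 or more G. In the last 60 bases before the tail, capitals mark the polyadenylation hexamer AATAAA. In the PCR products, capitals mark the primer sites.
first bases, 1 to 120: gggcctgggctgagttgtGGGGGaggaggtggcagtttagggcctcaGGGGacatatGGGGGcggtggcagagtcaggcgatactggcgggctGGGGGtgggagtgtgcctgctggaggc
window richest in G, 2012 to 2071: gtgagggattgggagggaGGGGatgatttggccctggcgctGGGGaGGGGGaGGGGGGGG
last bases before the tail, 3361 to 3420: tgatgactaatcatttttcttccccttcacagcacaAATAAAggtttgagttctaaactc
PCR product, 380 to 675: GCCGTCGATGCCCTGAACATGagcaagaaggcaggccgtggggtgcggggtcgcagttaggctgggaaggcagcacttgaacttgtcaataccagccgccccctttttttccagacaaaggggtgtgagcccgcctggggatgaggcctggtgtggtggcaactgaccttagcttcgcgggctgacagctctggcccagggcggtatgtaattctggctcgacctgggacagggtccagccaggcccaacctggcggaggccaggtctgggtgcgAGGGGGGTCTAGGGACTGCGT
qPCR product, 3117 to 3205: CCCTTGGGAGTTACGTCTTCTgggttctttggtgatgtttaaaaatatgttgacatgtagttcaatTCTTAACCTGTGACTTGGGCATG

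G was spread unevenly along TCONS_00036665. The RNA held 29 runs of 4 or more G (GGGG) on its own strand and 12 runs of 4 or more C (CCCC), which would read as GGGG on the opposite strand. Of the 29 runs of G, 19 lay in the first 1710 nt and 10 in the last 1710 nt. The 5′ part was thus the richer in such runs, and the GC content fell in the same direction, from 59.8% in the first 1710 nt to 42.0% in the last. The fall was not even for G alone. Positions 2053 to 2394 held 36.8% G and 5 runs, near the 37.7% and 5 runs of positions 343 to 684. The longest run had 8 G and closed the window shown, in which 38 of 60 bases (63.3%) were G. Both lay in the last 1710 nt. The window that started at the base before held as many G, and the last of such ties is shown. Sequences of the same length from the pig genome were not analysed here, so how common this composition is was not measured, and whether it bears on the FPKM values was not tested.

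The assays of the study read opposite ends of the gradient in GC content. The 296-nt PCR product came from the GC-rich 5′ part, and the 89-nt qPCR product from the last 342 nt, where the GC content was 39.5%. AATAAA occurred 1 time, at 3397 to 3402, and ended 18 nt before the tail. The longest open reading frame from an ATG had 67 codons, lay at 2211 to 2414 and covered 5.96% of the RNA. How it compares with the frames of other RNAs of this length was not measured.

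**Figure D1:**
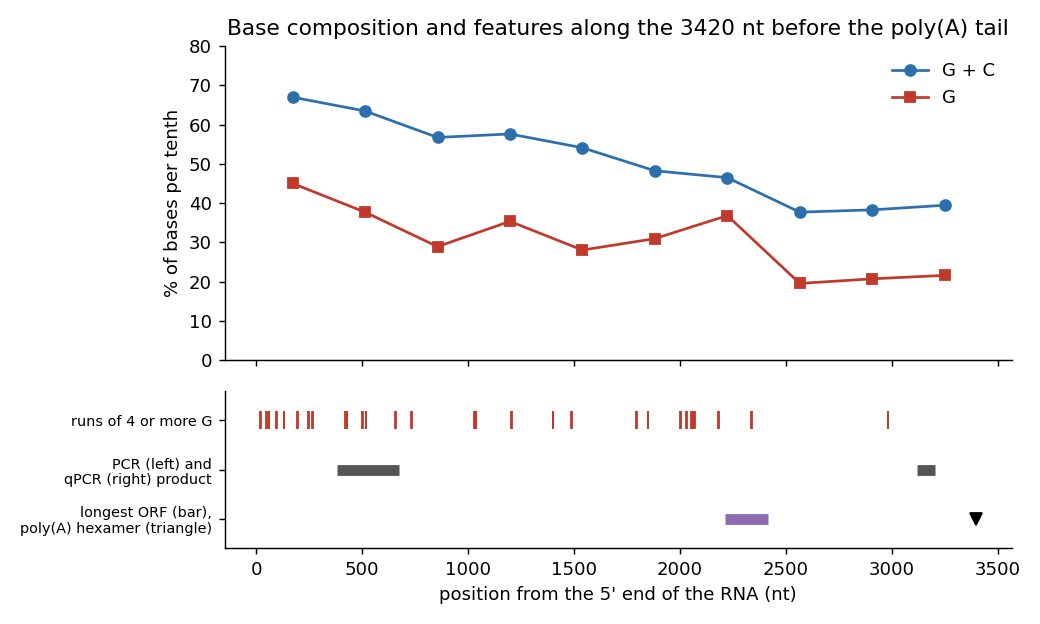
Base composition of TCONS_00036665 in 10 windows of 342 nt (upper panel, percent of bases against position in nt from the 5′ end) and the positions of runs of 4 or more G, PCR and qPCR products, the longest open reading frame and the AATAAA hexamer (lower panel). GC content was 67.0% in the first window and 39.5% in the last, and G runs were densest near the 5′ end.

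The transcript model to which the FPKM values belong was longer than this RNA. It had 1 exon of 4637 nt at chr2:5940489-5945125 of the Sscrofa10.2 assembly, with no strand assigned, so fragments from either strand could count towards it. The RNA before its tail was 73.8% as long as the model, a difference of 1217 nt. This compares lengths only, since the mapped RNA was not placed on the genome here and its position in the model was not checked. FPKM divides by the length of the model, and no value for the mapped RNA itself could be separated from it.

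The FPKM of TCONS_00036665 was 317.5 with the EZH2 antibody, 74.3 with IgG and 43.3 in lincRNAseq. In FPKM as deposited, TCONS_00036665 was thus highest in the EZH2 precipitate, and also higher in the IgG precipitate than in the total RNA. Without a pseudocount, its EZH2_FPKM was 4.27 times its IgG_FPKM and 7.34 times its lincRNA_FPKM, and its IgG_FPKM was 1.72 times its lincRNA_FPKM. Neither order held on every scale, by log2 ratios with a pseudocount of 2. The ratio of EZH2 to IgG was 2.17 when centred on the median ratio and -0.084 with equal sums of FPKM. That of IgG to lincRNAseq was -0.55 when centred on the median of 938 transcripts and 3.33 with equal sums. The precipitates and the total RNA were prepared as different kinds of library, and the part of this in the ratios to lincRNAseq was not tested.

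By rank among all 14580 transcripts, TCONS_00036665 stood near the top of both precipitates and somewhat lower in the total RNA. It ranked 60 of 14580 in EZH2_FPKM and 65 in IgG_FPKM, within the top 0.412% and 0.446% of transcripts. In lincRNA_FPKM it ranked 357, within the top 2.45%. These ranks count the transcripts listed at 0, which differ in number between libraries. Among transcripts above 0 in the same library, TCONS_00036665 was 60 of 6226 with EZH2, 65 of 1043 with IgG and 357 of 12466 in lincRNAseq. As a share of its list, it thus stood further up in lincRNAseq than in IgG. These lists differ much in length, so their ranks show no difference between libraries. Counted only among the 745 transcripts above 0 in every library, its ranks were 17, 33 and 45 in EZH2, IgG and lincRNAseq. In that common set it stood higher with EZH2 than with IgG. The set was chosen by these same values and leaves out transcripts at 0 in IgG. On chromosome 2 such transcripts were 3 of the 7 above TCONS_00036665 in EZH2_FPKM. The ranks in the common set therefore show no difference between the precipitates.

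The distance from the median of the transcripts above 0 was smallest in IgG. Those above 0 were 7.15% of all transcripts in IgG, 42.7% in EZH2 and 85.5% in lincRNAseq, so the medians describe unlike sets. The EZH2_FPKM of TCONS_00036665 was 93.9 times the median of the 6226 transcripts above 0 in that library, and its lincRNA_FPKM was 90.6 times the median of 12466. Its IgG_FPKM was 12.4 times the median of 1043. The IgG median was the highest of the 3 at 5.97, against 3.38 for EZH2 and 0.477 for lincRNAseq. The cause of the smaller fold in IgG was not tested.

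On chromosome 2, which held 850 of the transcripts, TCONS_00036665 had the same rank with EZH2 and with IgG. It ranked 8 in EZH2_FPKM and 8 in IgG_FPKM, and lower, at 27, in lincRNA_FPKM. In EZH2_FPKM the transcript just above it had 329.9 and the one just below 211.3, which was its own overlapping model, described further on. Of the 7 transcripts of chromosome 2 above it in EZH2_FPKM, 4 were also above 0 in IgG and 3 were listed at 0 there. In IgG_FPKM its neighbours in rank had 76.9 and 63.5, and in lincRNA_FPKM 46.7 and 42.6. With 1 library per condition, whether such adjacent ranks differ beyond the spread between animals could not be tested.

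**Figure D2:**
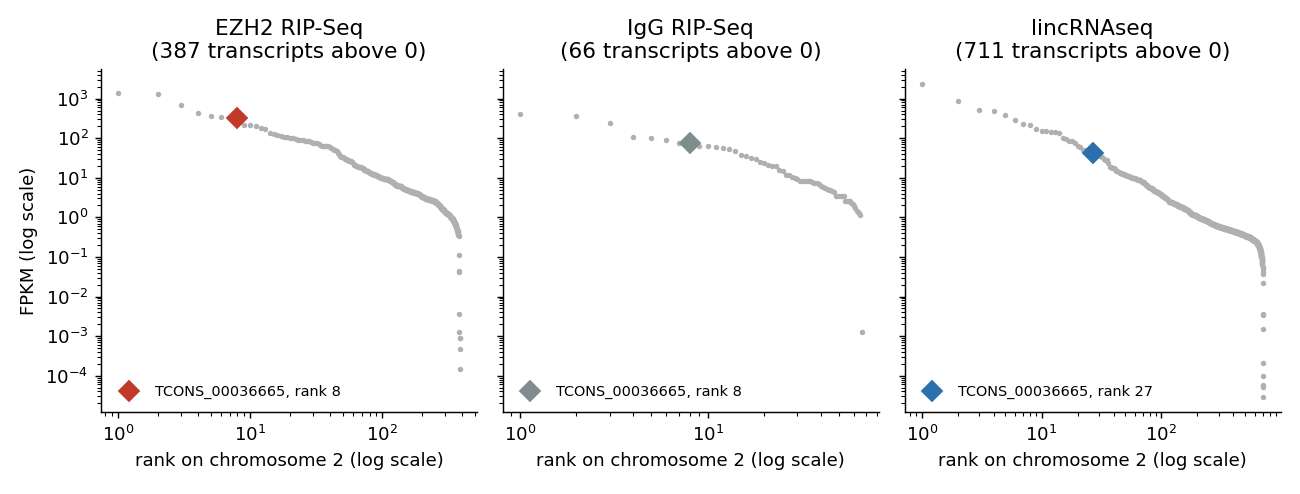
FPKM (log scale) against rank on chromosome 2 (log scale) in each library, for transcripts above 0, with TCONS_00036665 as a diamond. It stood at rank 8 of 387 in EZH2 RIP-Seq, 8 of 66 in IgG RIP-Seq and 27 of 711 in lincRNAseq.

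Transcripts of nearest TCONS number on chromosome 2 were mostly listed at 0. Of the 5 lower and 5 higher numbers, 7 were at 0 in all 3 libraries, among them the adjacent ones, TCONS_00036651 and TCONS_00036674. EZH2_FPKM was above 0 for 3 of the 10, IgG_FPKM for 0 and lincRNA_FPKM for 2. The highest in EZH2_FPKM was TCONS_00036675, at 33.9, with 0 in IgG_FPKM and 0.299 in lincRNA_FPKM. In lincRNA_FPKM the highest was TCONS_00036678, at 1.45. None of these 10 reached TCONS_00036665 in any library. With 10 numbers on each side, 10 of 20 were at 0 in all 3 libraries. In lincRNAseq, 2 of the 20 were above TCONS_00036665, the higher at 148.2. In either precipitate, 0 of the 20 were above TCONS_00036665. On the whole chromosome 92 of 850 transcripts were at 0 in all 3 libraries, so transcripts listed at 0 throughout were more frequent among these 10 neighbours than on the chromosome. Numbers follow the assembly and need not follow distance. TCONS_00036678, the only one of the 10 with coordinates in hand, lay 595 kb away, and how near the others lie was not analysed here.

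Coordinates were in hand only for the 356 models that the study listed as EZH2-enriched, 26 of them on chromosome 2. Of these, 2 other models lay within 10 kb of TCONS_00036665, and models outside the list were not placed. TCONS_00038443, at chr2:5939372-5942860, was 3489 nt long and shared 2372 bp with it, which is 68.0% of TCONS_00038443 and 51.2% of TCONS_00036665. Its FPKM was 211.3 in EZH2, 30.3 in IgG and 9.95 in lincRNAseq. TCONS_00038441, at chr2:5934468-5938545, was 4078 nt long and ended 1943 bp before TCONS_00036665 began. Its EZH2_FPKM was 115.2, its IgG_FPKM 19.6 and its lincRNA_FPKM 11.0.

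In FPKM as deposited, these 3 models had the same order of libraries, EZH2 above IgG above lincRNAseq. The log2 ratio of IgG to lincRNAseq, with 2 added to both, was 0.73 for TCONS_00038441 and 0.75 for TCONS_00036665. Both lay below the median ratio of 1.30 over 938 transcripts, so centring on it places IgG below lincRNAseq. For TCONS_00038443 it was 1.43, above that median. Over the 254 transcripts above 0 in both precipitates and above 1 in lincRNAseq the median was 0.26, and all 3 models lay above it. With equal sums over all transcripts, the log2 ratio of EZH2 to IgG of TCONS_00036665 was -0.084. The study listed these models for their EZH2 enrichment, so their high EZH2 values are no finding. The numbers beside them, chosen after their values were seen and without coordinates, differed from each other. TCONS_00038440 had 76.5, 15.7 and 6.18 FPKM in EZH2, IgG and lincRNAseq, while TCONS_00038442 had 14.8, 0 and 8.56, with lincRNAseq above IgG. The next listed numbers on each side, TCONS_00038439 and TCONS_00038445, were at 0 in both precipitates. So were TCONS_00038438, TCONS_00038447 and TCONS_00038448. TCONS_00036665 was the highest of the 3 placed models in every library, and its plain ratio of EZH2 to IgG, 4.27, was the lowest, against 6.99 for TCONS_00038443 and 5.87 for TCONS_00038441. The same held for EZH2 to lincRNAseq, at 7.34 against 21.2 and 10.4. Overlapping models share fragments, so the values of TCONS_00036665 and TCONS_00038443 are not independent of each other.

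**Figure D3:**
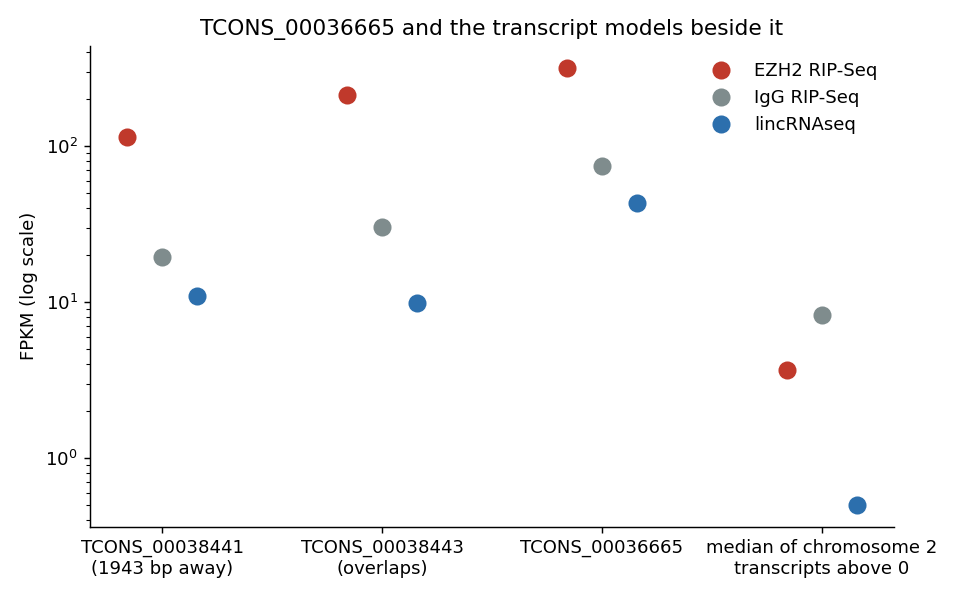
FPKM (log scale) of TCONS_00036665 and of the 2 models beside it in each library, with the median of the chromosome 2 transcripts above 0 in that library. All 3 models lay above the medians of 3.69 (EZH2), 8.31 (IgG) and 0.504 (lincRNAseq). In FPKM as deposited, each had the order EZH2, IgG, lincRNAseq.

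The sharing of fragments could be read from the values. An FPKM made from whole fragments is a whole multiple of the value of 1 fragment, which depends on the depth of the library and the length of the model. Among models of at least 800 nt, with 200.8 nt taken off the length, low values were within 0.05 of a whole number of fragments, of at least 1, for 61 of 69 in the EZH2 library (88.4%) and for 24 of 26 in the IgG library (92.3%). In lincRNAseq this held for 9 of 33 (27.3%), and with the offset of 267.9 nt fitted to that library alone, tried after seeing the data, for 17 of 87 (19.5%), so no fragment number could be given there and the depth of that library is unknown. The steps put the depth behind the FPKM values at 928973 fragments for EZH2 and 184124 for IgG. Offset and step were fitted to these same models, and a step was used only if at least 85% of low values came out whole. The shares of 88.4% and 92.3% therefore describe the fit and are no separate check of it.

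On this scale TCONS_00036665 stood for 1308.37 EZH2 fragments and 60.68 IgG fragments, and neither is a whole number. TCONS_00038443 stood for 645.57 and 18.31, also not whole. Their sums were 1953.94 and 79.00, which lie within 0.061 and 0.00054 of 1954 and 79. The 2 overlapping models thus held a nearly whole number of fragments together and fractions of it apart. A fraction alone does not show sharing within the pair, since TCONS_00038441, which overlaps neither of them, also stood at a fraction in the EZH2 library, 414.8 fragments, while its IgG value was 14.0. The EZH2 sum is the less telling one, since its distance from a whole number was outside the tolerance of 0.05, at 31.1 ppm of its size.

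The estimated division differed between the libraries, though whether it did so beyond counting error was not tested. TCONS_00036665 received 67.0% of the EZH2 fragments of the pair and 76.8% of its IgG fragments. By FPKM times length it received 85.4% in lincRNAseq, or 85.2% with the full lengths. Its own ratio of EZH2 to IgG therefore lies below that of the pair, and that of TCONS_00038443 above it. With 60.68 fragments it was also the best covered in IgG of the 34 models of the EZH2-enriched list that were at least 400 nt long and above 0 there, where the median was 1 fragment. These are a small part of the 1043 transcripts above 0 in IgG, and the list favours low IgG values.

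**Figure D4:**
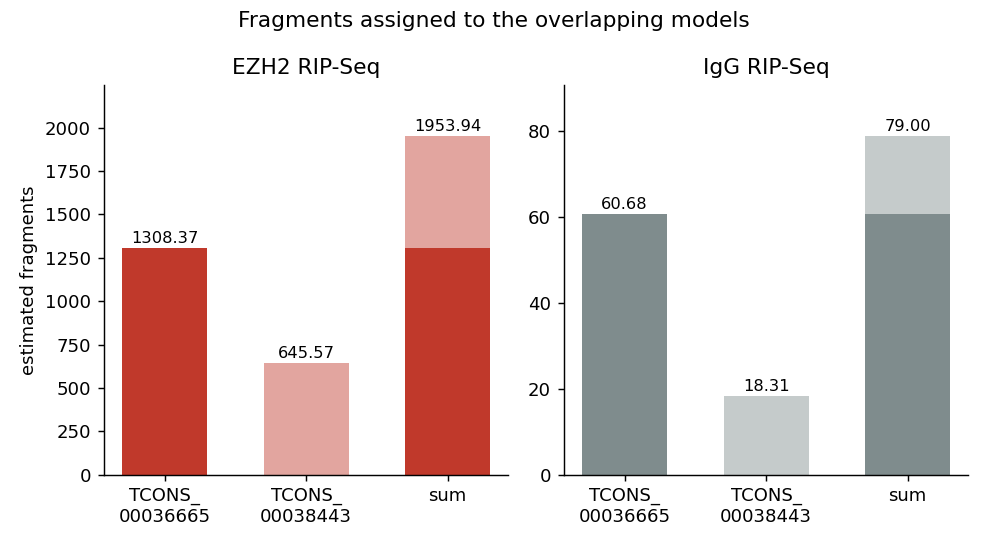
Estimated fragments (linear scale from 0) of TCONS_00036665, of the overlapping TCONS_00038443 and of both together, in the EZH2 and the IgG precipitate. The parts are fractions, and the sums of 1953.94 and 79.00 lie near whole numbers.

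These numbers give the counting error of the ratio of EZH2 to IgG. From the rounded 1308 and 61 fragments, the ratio of TCONS_00036665 on the FPKM scale was 4.25, with an exact 95% Clopper-Pearson interval from 3.29 to 5.59. For the pair, with no division to estimate, it was 4.90 (3.91 to 6.22), and for TCONS_00038441, rounded to 415 and 14 fragments, 5.88 (3.46 to 10.8). The interval of TCONS_00038441 covers the ratios of TCONS_00036665 and of the pair, while that of TCONS_00036665 ends below 5.88. For TCONS_00038443, rounded to 646 and 18 fragments, the ratio was 7.11 (4.46 to 12.1), an interval that lies above 4.25. All of these intervals overlap, and those of TCONS_00036665 and TCONS_00038443 rest on the estimated division. A difference among the ratios was not tested. Intervals cover counting error only, and neither the spread between animals nor between precipitations. As a share of the depth behind the FPKM values, TCONS_00036665 held 0.141% (0.133 to 0.149) with EZH2 and 0.0331% (0.0253 to 0.0426) with IgG. That depth equals the fragments of a library only if FPKM carried no further scaling, which could not be checked here.

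The study asked which lincRNAs the EZH2 antibody enriched, by a log2 ratio with 2 added to both FPKM values and a threshold of 1. Its ratio was to IgG where IgG_FPKM was above 0, as for TCONS_00036665, and to lincRNAseq only where IgG_FPKM was 0. For TCONS_00036665 the ratio to IgG was 2.07. On the same scale, and outside that rule, its ratio to lincRNAseq was 2.82 and that of IgG to lincRNAseq 0.75. The FPKM values set the list of candidates from which the study took TCONS_00036665, and its likeness to a known muscle transcript led to its further study, so its place above the threshold is a description. Among the 254 transcripts above 0 in both precipitates and above 1 in lincRNAseq, 88 (34.6%) had a ratio to IgG of at least 1, and TCONS_00036665 ranked 35. The median of the 254 was 0.37 (quartiles -0.70 and 1.26), so it lay above their upper quartile. On chromosome 2 the share was higher, with 12 of 21 (57.1%) at or above 1, and it ranked 6. Of these 12, 4 were TCONS_00036665 itself, TCONS_00038443, TCONS_00038441 and TCONS_00038440. Without them, a set chosen after seeing the data, the share was 8 of 17. Entry to the 254 required an IgG value above 0. At equal length 1 IgG fragment was worth 5.05 times the FPKM of 1 EZH2 fragment. How far this entry rule lowers the ratios of the 254 was not tested.

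The 254 included 29 transcripts whose IgG_FPKM was at least that of TCONS_00036665, itself among them, a set chosen after the values were seen. Of these 29, 16 (55.2%) had a ratio of at least 1, and TCONS_00036665 ranked 9. Whether this share differs from the 34.6% of the 254 was not tested. To lincRNAseq, and whether IgG_FPKM was 0 or not, 435 of the 1570 transcripts above 0 in EZH2 and above 1 in lincRNAseq (27.7%) had a log2 ratio of at least 1, and on chromosome 2, 36 of 106 (34%). TCONS_00036665 ranked 140 and 18 in these sets. A ratio past 1 was therefore common among its peers. As a share of the set, its ratio to lincRNAseq stood further up than its ratio to IgG. The sets differ, as only the 254 required a value above 0 in IgG, so these places cannot be compared.

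The ratio to IgG depended on how the precipitates were brought to 1 scale. TCONS_00036665 held 0.181% of the summed FPKM of the deposited transcripts with EZH2, 0.192% with IgG and 0.0183% in lincRNAseq. Its share was thus slightly lower with EZH2 than with IgG, because the sum itself was 4.54 times larger with EZH2. Without the 10 transcripts of highest EZH2_FPKM the sums still differed 4.95 times. With FPKM rescaled to equal sums over all transcripts, the log2 ratio went from 2.07 to -0.084. Such rescaling shifts all transcripts alike, here by -2.18 before the pseudocount, and is not particular to TCONS_00036665, which ranked 53 of the 254 after it. The exact counting interval, shifted likewise, ran from -0.46 to 0.30 and covered 0, so on this scale no difference between EZH2 and IgG was detectable. With equal sums over the 815 transcripts above 0 in both precipitates, an alternative chosen after seeing the data, it was 0.56, below the threshold. Centred on the median ratio of those 815 transcripts it was 2.17. The ratio to IgG was thus above the threshold for FPKM as deposited and when centred on the median, and below it with either set of equal sums. Which scale is right was not tested, and annotated transcripts, which also enter the FPKM scale, were not analysed here.

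The value of IgG to lincRNAseq also depended on the scale. Its log2 ratio of 0.75 became -0.55 when centred on the median of 1.30 over 938 transcripts, and 3.33 with equal sums. Over the 254 transcripts the median was lower, at 0.26, and TCONS_00036665 lay above it at rank 98. The ratio of EZH2 to lincRNAseq was 2.03 when centred and 3.24 with equal sums over all transcripts, both above 1.

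**Figure D5:**
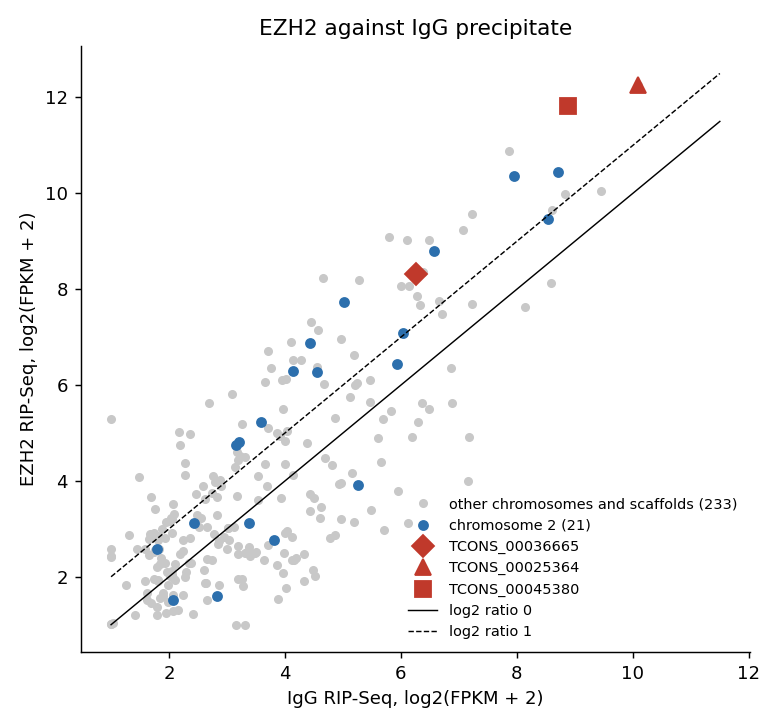
EZH2 against IgG RIP-Seq, both as log2(FPKM + 2), for 254 transcripts above 0 in both precipitates and above 1 in lincRNAseq, with the lines of log2 ratio 0 (solid) and 1 (dashed). TCONS_00036665 (diamond) lay above the dashed line at 2.07, among 12 of 21 chromosome 2 transcripts at or above it, and below the 2 other lincRNAs tested by RIP-PCR in both precipitates.

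The study put TCONS_00036665 to RIP-PCR together with TCONS_00025364 and TCONS_00045380. By FPKM it was the least abundant of the 3 in every library. TCONS_00025364 ranked 4 in EZH2 and 4 in IgG, and TCONS_00045380 ranked 5 and 9, against 60 and 65 for TCONS_00036665. It was at the same time much the longest model, at 4637 nt against 238 and 822 nt. Since FPKM is per length, it held more IgG fragments than TCONS_00045380, 60.68 against 54.00, at a lower FPKM. From fragments, the log2 ratio of EZH2 to IgG was 2.93 (exact interval 2.54 to 3.35) for TCONS_00045380 and 2.09 (1.72 to 2.48) for TCONS_00036665, so these intervals did not overlap. That rests on the estimated division with TCONS_00038443, because the interval of the undivided pair, from 1.97 to 2.64 around 2.29, does overlap that of TCONS_00045380. TCONS_00025364 was too short for the number of its fragments to be estimated.

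The transcripts most like TCONS_00036665 were TCONS_00053650 on chromosome 6 and TCONS_00035458 on chromosome 2, at distances of 1.10 and 1.12 over log2(FPKM + 2) in the 3 libraries. The median distance over all 14579 other transcripts was 9.65. TCONS_00053650 had 231.5, 75.4 and 20.5 FPKM in EZH2, IgG and lincRNAseq, and TCONS_00035458 had 440.2, 92.6 and 86.7. Since they were chosen by these same values, their like levels are built into the choice and describe no more than that.

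The study went on from these values to map the ends of TCONS_00036665, to separate nuclear from cytoplasmic RNA, to follow it in differentiating pig satellite cells, which are the stem cells of muscle, to lower or raise it in those cells, and to raise it in mouse C2C12 myoblasts and in mouse muscle. It also pulled down proteins with the RNA and measured EZH2 and its histone mark at promoters of genes of cell cycle exit (p21), myogenic differentiation (MyoG) and fast muscle fibres (Myh4). Those experiments were not analysed here. The FPKM values bear on their starting point, the presence of the RNA in muscle and in the EZH2 precipitate, with IgG signal beside it and with fragments shared between TCONS_00036665 and TCONS_00038443.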

How the data were processed

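RNA of longissimus dorsi muscle was measured in 3 libraries, 1 per condition. The authors trimmed and filtered reads, aligned them with TopHat2 to the Sscrofa10.2 genome, used Cufflinks and Cuffcompare for assembly, and deposited FPKM values from Cuffdiff. Tool versions and any further scaling between libraries are not given in the sources used here. A transcript on 2 identical rows was counted once. Ranks gave ties the best rank, and log2 ratios used a pseudocount of 2. Coordinates and lengths of 356 models came from the study list of EZH2-enriched lincRNAs, of which no FPKM value was used, and the sequence from its supplement. The coding potential filter of the study was not applied. The code for fragment steps was tested on simulated data.

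TCONS_00036665 and all lists were chosen with earlier results of these data known. Named besides it were the RIP-PCR transcripts, models that overlap it or lie within 10 kb, the adjacent TCONS numbers, the neighbour of highest EZH2_FPKM and the 2 transcripts of smallest Euclidean distance. TCONS_00036678, the nearest neighbour with coordinates, was named after its values were seen. So were the other listed numbers from TCONS_00038438 to TCONS_00038448, which run beside the models of the locus. Alternatives covered pseudocount, scaling, counting of rows, sets ranked, number of neighbours and length. Computation used pandas 2.3.3, numpy 2.4.6 and scipy 1.17.1 under Python 3.11.15, and figures used matplotlib 3.10.9.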

Additional observations from a re-analysis of the deposited data

How the results depend on the processing

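Over 33 alternative values of 11 results, 24 stayed within the tolerance (the counting interval for the ratio to IgG, 1.5 times for a rank or count, the side of the threshold for other ratios), 7 moved outside it and 2 changed sign. Both sign changes came from scalings that shift all transcripts alike, and the counting interval of the first covers 0. The log2 ratio of EZH2 to IgG changed from 2.07 to -0.084 with equal sums of FPKM and to 0.56 with equal sums over transcripts above 0 in both precipitates. That of IgG to lincRNAseq changed from 0.75 to -0.55 when centred on the median of 938 transcripts and to 3.33 with equal sums. Which scale is right was not tested. Counting each row moved the rank in EZH2 from 60 to 109 and in IgG from 65 to 115, since most transcripts are on 2 rows. Among transcripts above 0 in all 3 libraries the ranks were 17, 33 and 45, as fewer transcripts were ranked. Pseudocounts of 1, 0.1 and 0 left the ratio to IgG between 2.08 and 2.10, which shows little at FPKM values this high. With 10 neighbours on each side in place of 5, the share at 0 in all 3 libraries was 50% in place of 70%. Pooling with the overlapping model, chosen after seeing the data, gave 2.29. The IgG depth limits the ratio, which rests on about 61 fragments. No paired analysis was possible because there was a single library for each antibody and for total RNA.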

Other observations

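Fragment numbers were estimated for models of the study list of EZH2-enriched lincRNAs, a list that favours low IgG values. Of its 34 models of at least 400 nt above 0 in IgG, out of 1043 transcripts above 0 there, 29 were within 0.05 of a whole number of at least 1 fragment, and 5 were not, among them TCONS_00036665 and TCONS_00038443, and TCONS_00009017, named after its value was seen, which stood near 0 at 0.000177 fragments. Of the 34, 18 stood at 1 fragment and 24 at 3 or fewer whole fragments.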
